A study of Mus musculus with 6 samples.

Results

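Microglia, the resident macrophages of the brain, can show T cells both activating and braking ligands. Of the 9 genes described here, Cd274, Pdcd1lg2, Cd80, Cd86, Icosl, Icam1 and Vsir encode such ligands, and Havcr2 and Lag3 encode inhibitory receptors. The 9 genes were taken by gene symbol from a table of raw read counts with 23491 gene symbols, in which all 9 had a row. All 9 passed the filter on low counts that left 14727 genes for testing. RNA came from cerebellar microglia of mice lacking Fmr1, the gene silenced in fragile X syndrome. The mice were given saline (3 libraries) or, into the peritoneum, poly(I:C) (3 libraries), which is made of double-stranded RNA and imitates a virus. Every library carried the knockout, so no wild-type level is given. Per the labels' protocols the cells were enriched on magnetic beads against CD11b after perfusion and Percoll separation, and monocytes, neutrophils and other macrophages share CD11b. The labels give neither the dose nor the time after injection, the age of the mice, or whether the replicates were separate animals, and so the p-values cover the spread among these libraries, possibly a technical one. Sample titles call the saline group sham.

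The B7 family of ligands (CD80, CD86, ICOSL, PD-L1, PD-L2) sits on antigen-presenting cells and binds receptors of the CD28 family on T cells. CD80 and CD86 give the second signal of T-cell activation through CD28 and are taken away by the inhibitory receptor CTLA4, while PD-L1 and PD-L2, the products of Cd274 and Pdcd1lg2, engage PD-1 and restrain the T cell. VISTA (Vsir) is an inhibitory relative found mainly on myeloid cells, ICAM1 is the adhesion ligand of the integrin LFA-1, and TIM-3 (Havcr2) and LAG3 are inhibitory receptors best known from exhausted T cells. Interferons, acting in part through IRF1, are textbook inducers of Cd274 and, together with NF-kB, of Icam1.

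Library totals lay between 33710545 and 34899835 counts. Levels are given as CPM, counts brought to a common library total with TMM, a correction for library composition. On this scale 3 counts equalled 0.0852 to 0.0912 CPM, and such floors cover counting error only. The summed level of 11 microglia markers was between 36745 and 42611 CPM in saline and between 28756 and 39962 CPM in poly(I:C), with poly(I:C) replicate 1 lowest. Summed neutrophil markers (12 genes, all detected) reached 20643 CPM in saline replicate 1, while saline replicates 2 and 3 had 2464 and 2386 CPM and the poly(I:C) libraries 2246, 484 and 567 CPM, so the groups did not overlap. Choroid plexus markers (9 genes, all detected) were between 3950 and 8437 CPM in saline and between 7648 and 19367 CPM in poly(I:C), highest in poly(I:C) replicate 1. In bulk samples, fewer cells of a type and less RNA per cell cannot be told apart. Markers of T cells summed to between 9.06 and 18.3 CPM in saline and between 6.71 and 14.7 CPM in poly(I:C) over 11 genes. The CD3 chain genes Cd3d, Cd3e and Cd3g were each at or below 0.182 CPM in every library. Other genes of that list were higher: Cd247 reached 0.862 CPM, Lck 2.00 CPM and Cd4 13.6 CPM. The T-cell receptor genes Trac, Trbc1 and Trbc2 had no row, so their level is not known.

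Cd274 and Icam1 are shown by their promoters because both are classical interferon targets, and here Cd274 had one of the largest differences of the set while Icam1 had one of the smallest. The sequences are the 250 bases before the RefSeq start, in build GRCm38.p6 and on the plus strand, at chr19:29367188-29367437 for Cd274 and chr9:21015690-21015939 for Icam1. Capitals mark a match to the gamma-activated site core TTCNNNGAA.
Cd274: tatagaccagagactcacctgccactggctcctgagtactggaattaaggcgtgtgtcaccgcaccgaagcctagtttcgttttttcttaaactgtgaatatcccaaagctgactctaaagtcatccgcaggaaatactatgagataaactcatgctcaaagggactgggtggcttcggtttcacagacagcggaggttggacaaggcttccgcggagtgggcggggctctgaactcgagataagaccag
Icam1: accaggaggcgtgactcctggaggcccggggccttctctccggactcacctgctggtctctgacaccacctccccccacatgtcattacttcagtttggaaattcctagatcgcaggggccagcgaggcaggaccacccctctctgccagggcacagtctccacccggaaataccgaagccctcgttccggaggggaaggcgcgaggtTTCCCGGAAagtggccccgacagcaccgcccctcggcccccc
Promoters of 7 of the 9 genes were matched by symbol, and Cd86 and Lag3 were not among them. In windows from 250 bases before to 50 after the start, 3 motifs were searched on both strands: the interferon-stimulated response element core (GAAA, 2 bases of any kind, GAAA), the gamma-activated site core TTCNNNGAA and the kappa-B consensus. The first was in 0 of the 7 windows and in 3.44% of all 32841 promoters of that length. The gamma-activated site core was in 1 of the 7, Icam1, beginning 42 bases before the start, and in 8.30% of all promoters. The kappa-B consensus, searched as GGGRNNYYCC (R is A or G, Y is C or T), was in 2, Pdcd1lg2 and Icosl. It began 244 and 111 bases before the start, and was in 8.46% of all promoters. The Icam1 sequence holds tggaaattcc, which differs from this pattern only at its first base and so was not counted. A window without a match can thus still hold a near match. The Cd274 window held none of the 3. These are matches of letters and not shown to be bound sites.

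None of the 9 genes passed the test between poly(I:C) and saline. By the quasi-likelihood test of edgeR, Benjamini-Hochberg adjusted over all tested genes, 0 were called higher and 0 lower at an adjusted p under 0.05, where 0.883% of tested genes were called higher and 0.0747% lower. Without adjustment, 2 of the 9 were higher (Cd274 and Icosl) and 1 lower (Lag3) at p under 0.05, against 10.5% of tested genes higher and 10.8% lower. Other tools made calls: DESeq2 and limma-voom with quality weights each called Cd274 higher and Lag3 lower and no other member. DESeq2 called 2.52% of its genes higher and 2.03% lower, and limma-voom 8.61% higher and 10.9% lower. The CPM values of the groups did not overlap for 5 of the 9 genes, higher for Cd274 and Icosl and lower for Cd80, Vsir and Lag3, where 28.4% of all tested genes did not overlap. The median log2 difference of the 9 was −0.03, beside 0.01 over all tested genes.

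**Figure D1:**
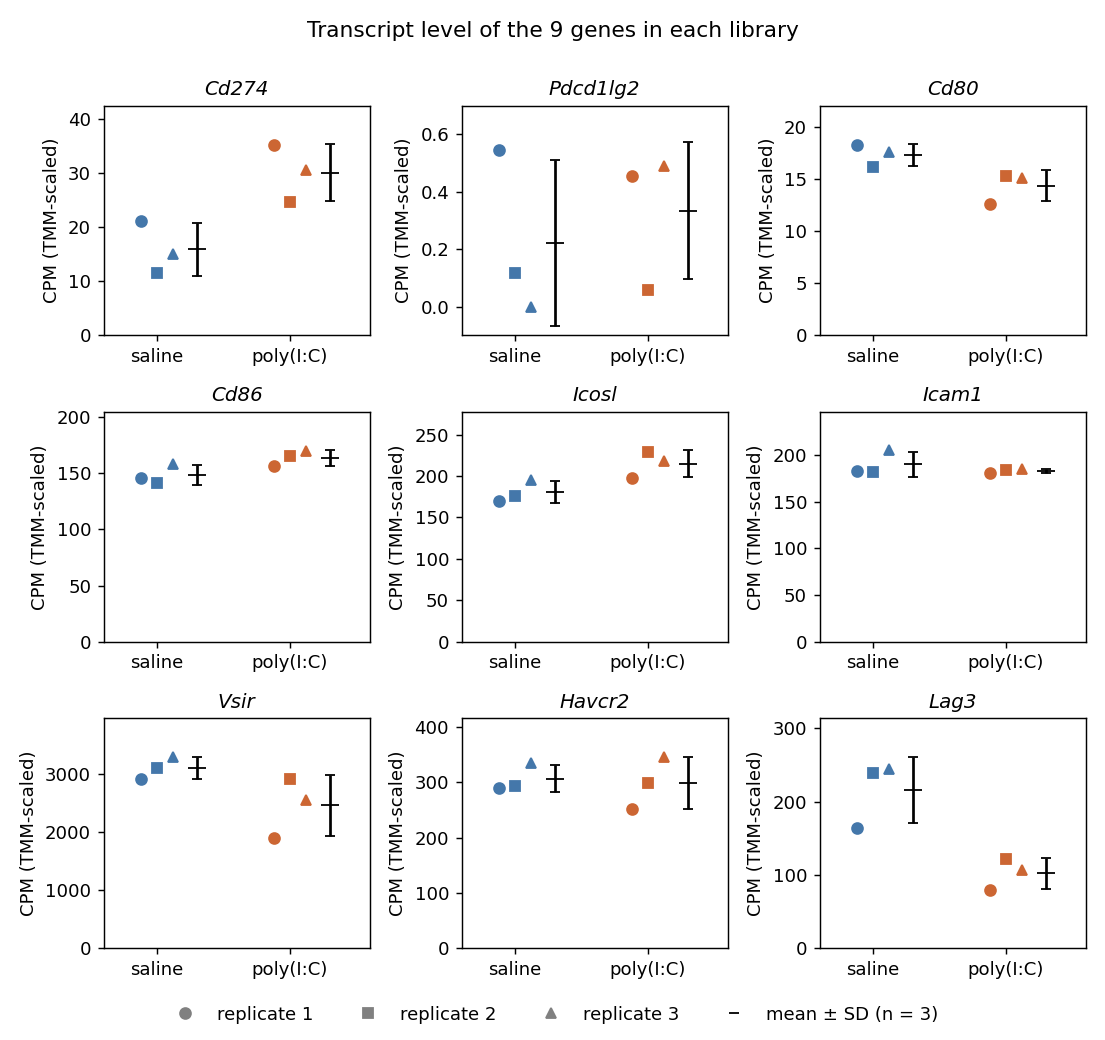
CPM of each of the 9 genes (vertical axis, from 0 except for Pdcd1lg2, whose axis starts lower to show the SD) in saline and poly(I:C) libraries; symbols are replicates, and bars give the mean ± SD of 3 libraries. Cd274 lies higher and Lag3 lower in all 3 poly(I:C) libraries, while the Icam1, Havcr2 and Cd86 groups overlap.

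Of the ligands of PD-1, Cd274 was well detected and Pdcd1lg2 hardly at all. Cd274, which encodes PD-L1, stood at 21.1, 11.4 and 15.1 CPM in saline replicates 1 to 3 and at 35.1, 24.6 and 30.5 CPM in poly(I:C) replicates 1 to 3. Every poly(I:C) library was above every saline library, and saline replicate 1 was the highest of the controls. The means were 15.9 ± 4.87 and 30.1 ± 5.28 CPM (SD, n = 3 each), a log2 difference of 0.92 (SE 0.24), or 1.90-fold, that missed the threshold in edgeR (adjusted p = 0.147). Without saline replicate 1, the library with the high neutrophil markers, the log2 difference was 1.17 and passed (edgeR adjusted p = 0.0490, where 1.10% of genes in that fit were called higher). Leaving out any other single library gave log2 differences between 0.73 and 1.05 that did not pass. DESeq2 gave 0.89 (adjusted p = 0.0136) and limma-voom with quality weights 1.08 (adjusted p = 0.00899). In the GENCODE annotation of build GRCm38 an antisense gene covers 14.1% of the exon bases of Cd274, and the counting is not stated to use strand, so reads of the pair cannot be told apart.

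Pdcd1lg2, which encodes PD-L2 and is mostly a gene of dendritic cells and activated macrophages, was covered by 18, 4 and 0 reads after saline and by 16, 2 and 17 reads after poly(I:C). Its groups overlapped, and the 0 of saline replicate 3 allows up to 0.0884 CPM. At 0.221 ± 0.289 and 0.334 ± 0.239 CPM (SD, n = 3 each), the log2 difference of 0.60 had a standard error of 1.22 (edgeR adjusted p = 0.787). The estimate moved widely with the libraries used, to 2.43 without saline replicate 1, 0.29 without saline replicate 2, 0.016 without saline replicate 3, 0.33, 1.09 and 0.22 without poly(I:C) replicates 1, 2 and 3, and 2.94 in limma-voom, and none of these passed.

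The CD28 and ICOS ligands showed small differences in different directions. Cd80 had 18.2, 16.2 and 17.6 CPM in saline and 12.6, 15.3 and 15.1 CPM in poly(I:C). The 3 poly(I:C) libraries lay below the 3 saline libraries, replicate 1 of poly(I:C) lowest, and the log2 difference was −0.27 (SE 0.13, edgeR adjusted p = 0.270). It was −0.17 without poly(I:C) replicate 1 (edgeR adjusted p = 0.553), −0.13 without the first library of both groups and −0.08 with scaling to microglia markers. Cd86, the more abundant of the pair, had 145, 142 and 158 CPM in saline and 156, 165 and 169 CPM in poly(I:C). Its groups overlapped, since saline replicate 3 was above poly(I:C) replicate 1, and the log2 difference was 0.14 (SE 0.08, edgeR adjusted p = 0.322).

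Icosl, the ligand of the T-cell receptor ICOS, had 170, 176 and 196 CPM in saline and 198, 229 and 218 CPM in poly(I:C). The groups stayed apart by little, with saline replicate 3 just under poly(I:C) replicate 1. The means of 181 ± 13.2 and 215 ± 16.01 CPM (SD, n = 3 each) gave a log2 difference of 0.25 (SE 0.09, edgeR adjusted p = 0.206). By limma-voom with quality weights it came to adjusted p = 0.0506.

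Icam1, the adhesion molecule that holds T cells and neutrophils through LFA-1 and Mac-1, had 183, 182 and 205 CPM in saline and 180, 184 and 185 CPM in poly(I:C). The groups overlapped, with the poly(I:C) values close together and saline replicate 3 above all others. The log2 difference was −0.05 (SE 0.08, edgeR adjusted p = 0.706), and its sign turned with total-count scaling (0.02), without saline replicate 3 (0.003) and with scaling to microglia markers (0.16). An antisense gene covers 11.7% of the exon bases of Icam1 in the same GENCODE annotation.

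Among the inhibitory members Vsir, Havcr2 and Lag3, Lag3 had the largest difference, and of all 9 genes it had the smallest p. Lag3 encodes an inhibitory receptor that binds MHC class II, and had 164, 239 and 245 CPM in saline and 79.2, 121 and 107 CPM in poly(I:C). The groups did not overlap, and replicate 1 was lowest in both. From 216 ± 45.0 to 102 ± 21.3 CPM (SD, n = 3 each), the log2 difference was −1.08 (SE 0.21), or 2.11-fold lower, and missed the threshold in edgeR (adjusted p = 0.0837, unadjusted p = 0.00132). Without saline replicate 1 it was −1.24 and passed (edgeR adjusted p = 0.0491, where 0.106% of genes in that fit were called lower). With no filter on low counts it was −1.09 (edgeR adjusted p = 0.0495, where 0.0813% were called lower). DESeq2 gave −1.10 (adjusted p = 9.83e-05) and limma-voom −1.12 (adjusted p = 0.00309). Leaving out any other single library gave log2 differences between −1.22 and −0.90 that did not pass. Lag3 was at least 79.2 CPM in every library. Markers of T cells summed to at most 18.3 CPM over 11 genes, and markers of natural killer cells to at most 38.0 CPM over 8 genes. Which cells the Lag3 reads came from was not tested.

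**Figure D2:**
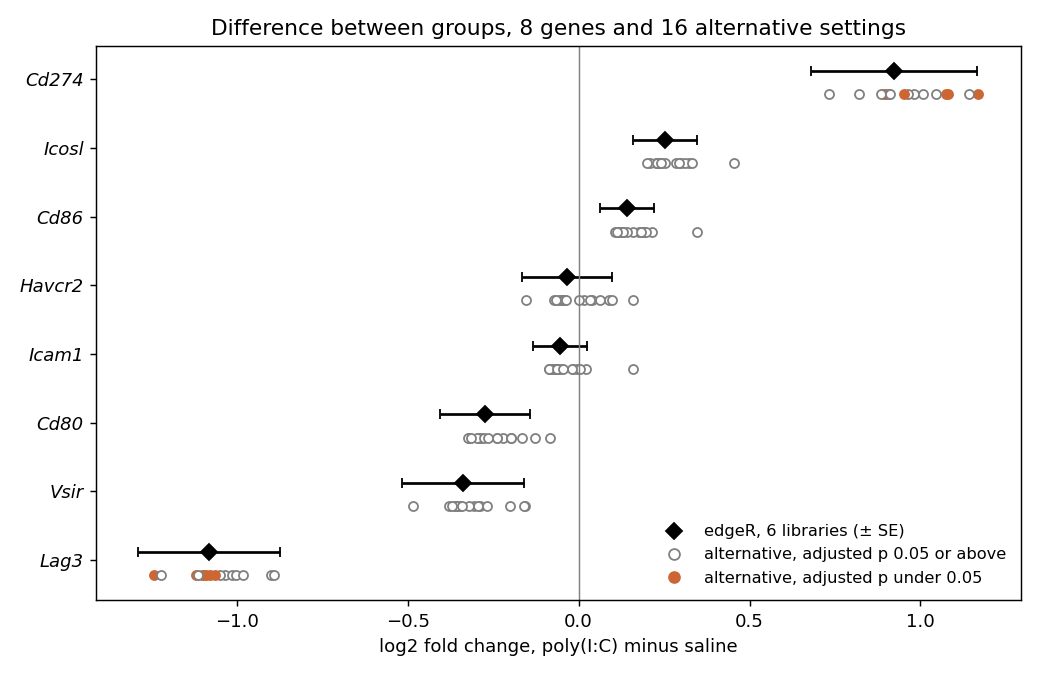
Log2 difference of poly(I:C) minus saline (horizontal axis) for 8 of the 9 genes, with the edgeR value of all 6 libraries ± SE (diamond) above the values of 16 alternative settings (circles, filled where adjusted p was under 0.05). Pdcd1lg2, with 0 to 18 reads a library, is not drawn; filled circles occur for Cd274 and Lag3, and the circles of Havcr2 and Icam1 lie on both sides of 0.

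Vsir was the most abundant of the 9, at 2916, 3100 and 3293 CPM in saline and 1894, 2914 and 2556 CPM in poly(I:C). Poly(I:C) replicate 1 was far below the rest, while poly(I:C) replicate 2 was within 3 CPM of the lowest saline library. The log2 difference was −0.34 (SE 0.18, edgeR adjusted p = 0.300), and −0.16 without poly(I:C) replicate 1 (edgeR adjusted p = 0.566). That library also had the lowest microglia marker sum. The span of Vsir overlaps Cdh23 on the other strand, without shared exon bases in the GENCODE annotation.

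Havcr2, which encodes the phosphatidylserine and galectin-9 receptor TIM-3 and is expressed by resting microglia, had 291, 294 and 334 CPM in saline and 252, 298 and 347 CPM in poly(I:C). The groups overlapped throughout, with the lowest and the highest value both in poly(I:C). The log2 difference was −0.03 (SE 0.13, edgeR adjusted p = 0.894), and its sign turned in 7 of 16 alternatives, among them upper-quartile and total-count scaling.

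Because the microglia marker sum differed between libraries, each gene was also set against it, a ratio chosen after its values were seen. Per 1000 counts of the 11 microglia markers, Lag3 stood at 4.47, 5.82 and 5.75 counts for saline and at 2.75, 3.03 and 2.88 for poly(I:C). On this ratio the poly(I:C) libraries were nearly alike, at 2.89 ± 0.139 against 5.35 ± 0.760 (SD, n = 3 each), and the groups did not overlap. For Cd274 the saline values were 0.574, 0.278 and 0.354 and the poly(I:C) values 1.22, 0.615 and 0.823. Its lowest poly(I:C) library was above its highest saline library by little. For Vsir they were 79.4, 75.4 and 77.3 against 65.9, 72.9 and 68.9, and Cd80, Icam1, Havcr2 and Pdcd1lg2 overlapped on this scale. The share of all tested genes whose groups stayed apart on this ratio was not computed, so these separations have no baseline. Icosl, at 4.50 ± 0.196 against 6.16 ± 0.621, and Cd86, at 3.70 ± 0.255 against 4.71 ± 0.662 (SD, n = 3 each), were higher in every poly(I:C) library, although the Cd86 groups overlapped in CPM. In an edgeR fit scaled to the marker sum, which raised the median log2 difference of all tested genes to 0.22, the log2 differences were −0.89 for Lag3 (adjusted p = 0.0681), 1.14 for Cd274 (adjusted p = 0.322), 0.45 for Icosl (adjusted p = 0.275), 0.35 for Cd86 (adjusted p = 0.324) and −0.16 for Vsir (adjusted p = 0.347). The part of neutrophil and choroid plexus RNA in these differences was not tested. The fits that left out single libraries do not test it. Without saline replicate 1 the neutrophil marker sums were still 2464 and 2386 CPM in saline, against at most 2246 CPM in poly(I:C).

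**Figure D3:**
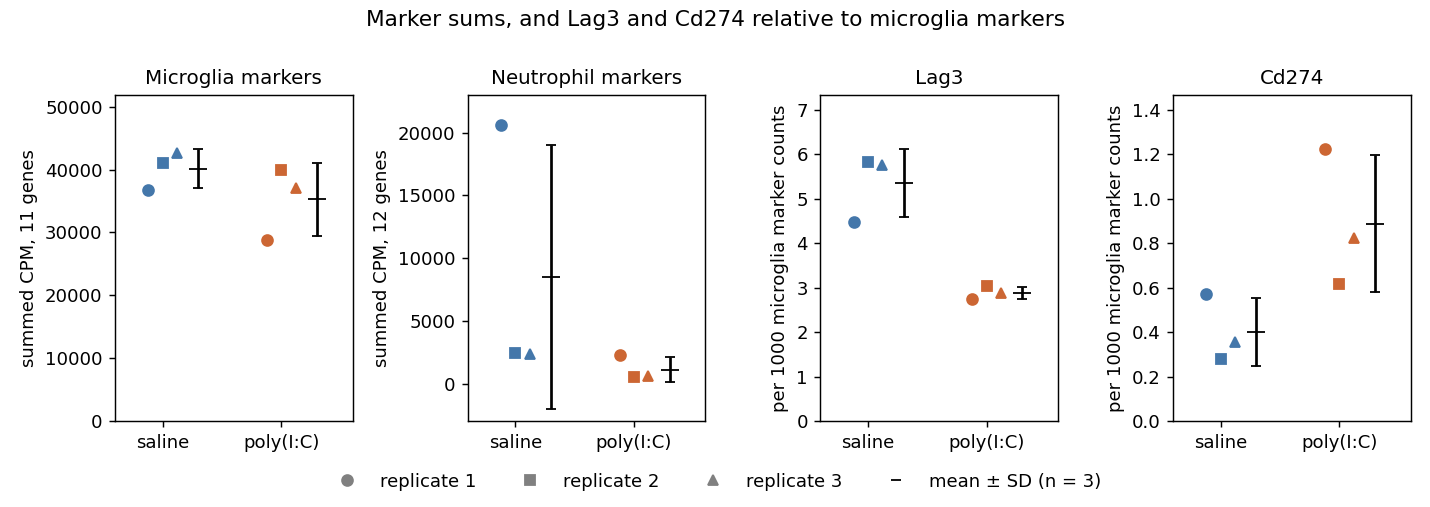
Summed CPM of microglia and neutrophil markers, and Lag3 and Cd274 counts per 1000 microglia marker counts (vertical axes), by group; symbols are replicates and bars the mean ± SD of 3 libraries, and the neutrophil axis starts below 0 to hold the SD. Saline replicate 1 stands apart in neutrophil markers at 20643 CPM, and the Lag3 ratio is between 2.75 and 3.03 in poly(I:C) and at least 4.47 in saline.

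The levels of the genes relative to each other were compared per exon length, as CPM per kilobase of merged GENCODE exons. In saline the order was Vsir (619 ± 37.6), Havcr2 (113 ± 9.00), Lag3 (103 ± 21.4), Icam1 (43.5 ± 3.00), Cd86 (40.5 ± 2.37), Icosl (39.1 ± 2.86), Cd80 (4.68 ± 0.279), Cd274 (4.38 ± 1.34) and Pdcd1lg2 (0.113 ± 0.147 CPM per kilobase, SD, n = 3 each). Neighbours whose libraries overlapped were Havcr2 and Lag3, Icam1 and Cd86, Cd86 and Icosl, and Cd80 and Cd274. So Vsir, Havcr2 and Lag3 led the set in saline, the PD-1 ligands Cd274 and Pdcd1lg2 came last, and Vsir was 5.50 times the level of the next gene. In poly(I:C) Vsir (490 ± 103) and Havcr2 (110 ± 17.3) again led, and Lag3 (48.5 ± 10.1 CPM per kilobase) overlapped Icosl, at 46.5 ± 3.47, which in turn overlapped Cd86, at 44.7 ± 1.85, while Icam1, at 41.9 ± 0.563, lay just below Cd86. Cd274, at 8.30 ± 1.46 CPM per kilobase, stood above Cd80, at 3.87 ± 0.404, in every poly(I:C) library.

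**Figure D4:**
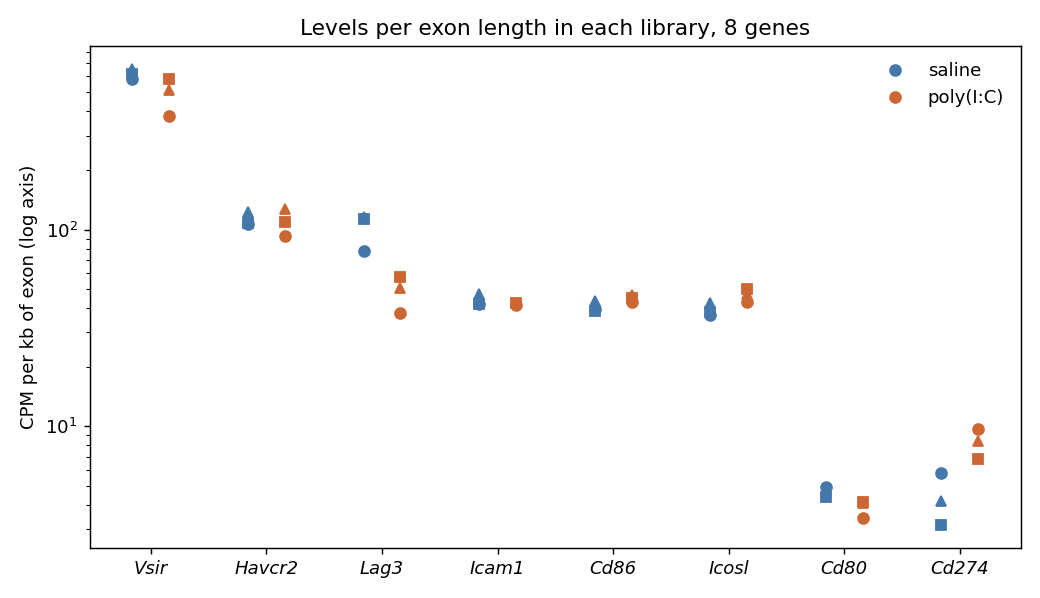
CPM per kilobase of exon (log axis) of 8 genes in each library, ordered by the saline mean; colours are groups and symbols are replicates (circle 1, square 2, triangle 3). Vsir lies above all others in each library, and Lag3 overlaps Havcr2 in saline and Icosl in poly(I:C); Pdcd1lg2, listed at 0 in 1 library, is left out of the log axis.

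Ratios of pairs of genes within a library do not depend on how libraries are scaled, and 4 pairs were chosen after their values were seen. The ratio of Cd274 to Cd80 per exon length was 1.18, 0.722 and 0.878 after saline, but 2.85, 1.65 and 2.06 after poly(I:C). Between the CD28 ligands, the ratio of Cd86 to Cd80 was 8.07, 8.84 and 9.10 after saline, but 12.5, 10.9 and 11.3 after poly(I:C). For the inhibitory receptors, the ratio of Havcr2 to Lag3 was 1.37, 0.951 and 1.06 after saline, but 2.47, 1.91 and 2.52 after poly(I:C). Vsir to Lag3 was 7.46, 5.45 and 5.65 after saline, but 10.1 in each poly(I:C) library. For all 4 ratios the groups did not overlap, and the exact two-sided permutation p of each was 0.10, the smallest that 3 against 3 libraries allow. These pairs share genes and were picked for their difference, so the values are a description.

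The partners that the 9 proteins bind showed no called difference in edgeR. Of 19 counter-receptors and binding partners, 15 were tested and 0 were called in edgeR; without adjustment 1 was higher and 2 lower at p under 0.05, near the 10.5% and 10.8% of tested genes, and the median log2 difference was −0.25. DESeq2 called 1 higher, Lgals9, and limma-voom called Lgals9 higher and H2-Ab1 lower, where DESeq2 called 2.52% of its genes higher and limma-voom 8.61% higher and 10.9% lower. Lgals9, the galectin that binds TIM-3, had 215, 194 and 213 CPM in saline and 282, 359 and 318 CPM in poly(I:C). Its log2 difference of 0.62 (SE 0.11) missed the threshold (edgeR adjusted p = 0.0640). H2-Ab1, a chain of the MHC class II molecule that LAG3 binds, stood at 100.5 ± 16.3 and 71.0 ± 11.003 CPM (SD, n = 3 each; edgeR adjusted p = 0.175), with overlapping groups. Rgmb, a partner of PD-L2, stood at 119 ± 12.2 and 99.4 ± 9.04 CPM (edgeR adjusted p = 0.234). Lgals3, a galectin that binds LAG3, had 129, 20.4 and 24.4 CPM in saline and 29.6, 14.7 and 20.1 CPM in poly(I:C), with saline replicate 1 far above the rest (edgeR adjusted p = 0.287). Of the T-cell receptors of the ligands, Ctla4 was at most 0.540 CPM and Cd28 at most 2.13 CPM in any library. Pdcd1, which encodes PD-1, stood at 10.6 ± 3.51 and 11.6 ± 0.655 CPM (edgeR adjusted p = 0.775), and Icos, the receptor of ICOSL, lay between 4.62 and 7.21 CPM over the 6 libraries (edgeR adjusted p = 0.572). These 4 genes were named after their values were seen.

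Further costimulatory, checkpoint and adhesion genes had no edgeR call either. Of 40 listed, 37 had a row and 31 were tested, with 0 called in edgeR, 5 higher and 2 lower without adjustment at p under 0.05 (against 10.5% and 10.8% of tested genes), and a median log2 difference of 0.38. DESeq2 called Cd40 and Timd4 higher, and limma-voom called 4 genes higher, Cd40, Cd48 and Timd4 among them, and 3 lower, among them Nectin2. Over all genes, DESeq2 called 2.52% higher and 2.03% lower, and limma-voom 8.61% and 10.9%. Cd40, the receptor through which T helper cells license antigen-presenting cells, had 1.89, 0.953 and 1.18 CPM in saline and 4.77, 2.84 and 3.51 CPM in poly(I:C). Its groups did not overlap, at low levels, and the log2 difference was 1.47 (SE 0.38, edgeR adjusted p = 0.142). Cd48, a ligand of the SLAM family, stood at 54.8 ± 7.30 and 73.1 ± 3.86 CPM (edgeR adjusted p = 0.154). Timd4, a phosphatidylserine receptor related to TIM-3, stood at 5.79 ± 2.45 and 13.4 ± 3.17 CPM (edgeR adjusted p = 0.159). Nectin2, a ligand of TIGIT and CD226, stood at 56.0 ± 4.51 and 41.8 ± 5.85 CPM (SD, n = 3 each; edgeR adjusted p = 0.169).

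The list of genes chosen as regulators of the 9 members did include called ones, Irf7, Stat2 and Irf9. Whether the listed genes control the members in these cells was not tested. Of 29 regulators 28 were tested, and 3 rose and 0 fell in edgeR, with a median log2 difference of 0.01, where 0.883% of all tested genes were called higher and 0.0747% lower. Without adjustment 5 were higher and 7 lower at p under 0.05, against 10.5% and 10.8% of tested genes. The groups did not overlap for 6 regulators on the higher and 10 on the lower side. Of all 14727 tested genes, 2063 did so on the higher and 2113 on the lower side, 28.4% with both directions together. DESeq2 called 4 higher and 1 lower, against 2.52% and 2.03% of its genes, and limma-voom called 7 higher and 5 lower, against 8.61% and 10.9%. The 5 lower in limma-voom were the NF-kB subunit genes Nfkb1, Nfkb2, Rela and Relb, together with Cmtm6. Irf7, which amplifies the type I interferon response, rose 15.7-fold from 21.2 ± 6.51 to 331 ± 64.0 CPM (SD, n = 3 each, edgeR adjusted p = 0.00108). Stat2 and Irf9, transcription factors of type I interferon signalling, rose 3.32-fold and 2.22-fold (edgeR adjusted p = 0.00108 and 0.00145). For all 3 genes every poly(I:C) library was above every saline library. Irf1, the factor best tied to Cd274 and chosen after its values were seen, had 102, 84.5 and 104 CPM in saline and 156, 131 and 128 CPM in poly(I:C). The groups stood apart, with a log2 difference of 0.52 (SE 0.12, edgeR adjusted p = 0.121). Rela, the NF-kB subunit that drives Icam1, had a log2 difference of −0.43 (SE 0.11, edgeR adjusted p = 0.140), and Cmtm6, which keeps PD-L1 at the surface, of −0.33 (SE 0.14, edgeR adjusted p = 0.232); these 2 were also chosen after their values were seen. DESeq2 called Irf1 higher and Rela lower.

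**Figure D5:**
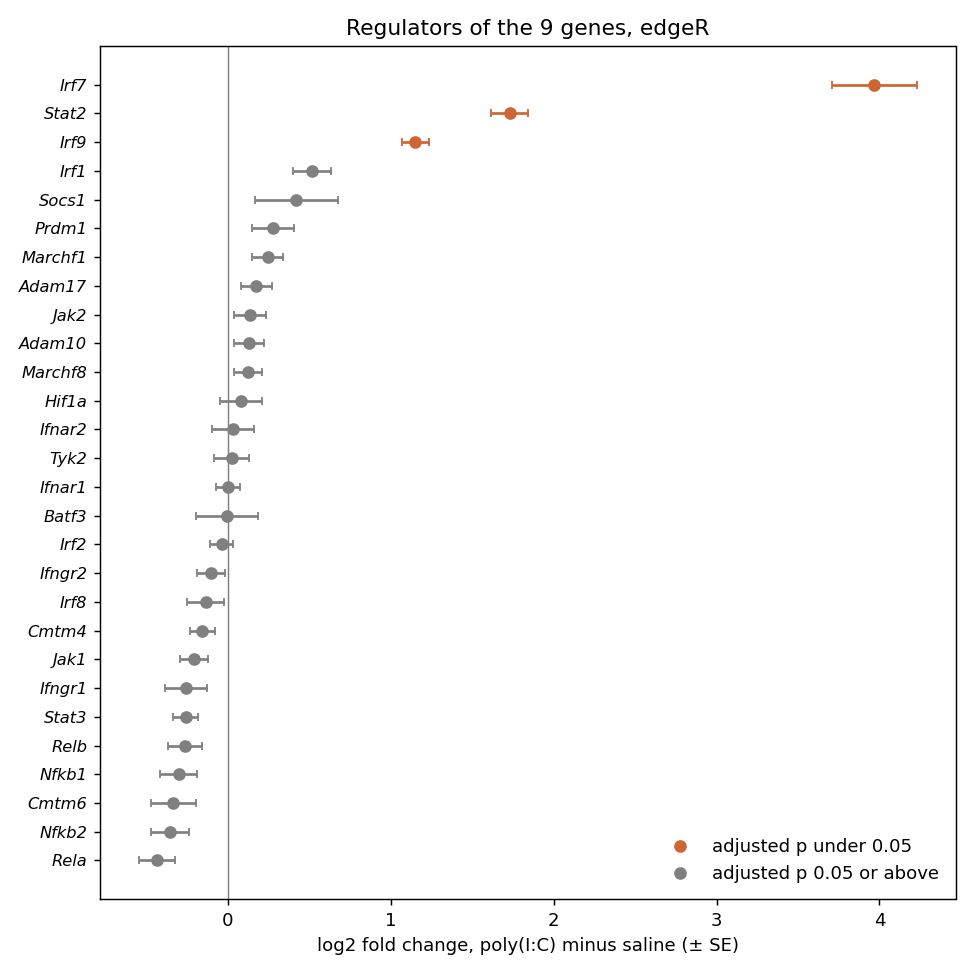
Log2 difference of poly(I:C) minus saline ± SE (horizontal axis) for the 28 tested regulators, from edgeR on all 6 libraries. The 3 called genes, Irf7, Stat2 and Irf9, lie at 1.15 or above, and the other 25 lie between −0.43 and 0.52.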

How the data were processed

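Per the labels, the authors deposited raw read counts per gene symbol, 1 column per library. Full-length cDNA was amplified by PCR and no molecular identifiers are mentioned, so counts are of reads. The submitters' processing notes name fastp, HISAT2, HTSeq and build GRCm39; their versions and settings, strand included, are not stated there. The 9 genes and all lists were chosen with earlier results of these data known.

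All genes were tested together with edgeR 4.0.16 in R 4.3.3 (filterByExpr, TMM, quasi-likelihood F test, group as the only term, Benjamini-Hochberg adjustment, threshold 0.05). Each standard error was computed from F as the size of the log2 fold change over √F. limma 3.58.1 and DESeq2 1.42.0 served as alternatives. Replicates differed by more than counting noise (chi-square per gene of at least 22.5). Named from each list were up to 4 tested genes with the smallest p; others are said to be chosen later. On simulated data for this comparison (14521 genes in the step), the share of changed genes recovered was 4.08% for 1.5-fold, 28.6% for 2-fold, 72.0% for 4-fold and 91.8% for 8-fold changes. False calls made up 13 of 110, a larger share than the threshold of 0.05. The simulated counts were drawn independently for each gene, so shifts shared by many genes, as with neutrophil markers, were not simulated. Recovery was pooled over genes of all levels and need not hold for a single member. Exon lengths and overlaps come from GENCODE M21 (build GRCm38), promoters from RefSeq. Of the list genes 9 had no row and are not analysed here, and 1 gene of the regulator list is not reported here. Marker lists of other cell types (NK, B and dendritic cells, monocytes, border macrophages, endothelium, astrocytes, neurons) are summed in the closing section.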

Additional observations from a re-analysis of the deposited data

How the results depend on the processing

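The count of members called was 0 higher and 0 lower in edgeR and became 1 higher (Cd274) and 1 lower (Lag3) under limma-voom with quality weights, under DESeq2, and when the first library of both groups was left out; with no filter it was 1 lower (Lag3). Leaving out single libraries gave between 0 and 1 higher and between 0 and 1 lower, with the calls made without saline replicate 1. Genes of the pathway lists called higher were 3, and 12 by limma-voom, 7 by DESeq2 and 6 without the first library of both groups, where the lower ones were 0 against 9, 1 and 2. Replicate numbers are shared by the groups, but the deviations of same-numbered libraries correlated at 0.11, −0.12 and 0.19, so they were not treated as pairs; with a replicate block the fit called Cd274 higher (log2 0.95, 1 member) and Lag3 lower (log2 −1.08, 1 member), and not every library correlated best with its own number. The sign for Havcr2 turned to 0.0150 with upper-quartile scaling, 0.0391 with total-count scaling, 0.0881 in limma-voom, 0.0623 without the first library of both groups and 0.160 with scaling to microglia markers, and ranged from −0.154 to 0.0976 when single libraries were left out. That for Icam1 turned to 0.0210 with total-count scaling and 0.158 with scaling to microglia markers, and ranged from −0.0861 to 0.00321 when single libraries were left out. The causes were not tested. The other 7 members kept their direction under every alternative that tested them. Over all tested genes edgeR called 130 higher and 11 lower, DESeq2 557 and 448, limma-voom 1268 and 1608, the block 171 and 89, and the fit without the first library of both groups 355 and 214; scaling to microglia markers gave 48 and 1, and leaving out single libraries 51 to 167 higher and 0 to 20 lower. DESeq2 gave Pdcd1lg2 no adjusted p, and the filter at 5 CPM removed it. Scaling to microglia markers was chosen after seeing the data.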

Other observations

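Other marker sums are given by list, and single genes can carry a sum. Monocyte markers summed to 2672 CPM in saline replicate 1, to 456 and 557 CPM in the other saline libraries and to between 324 and 754 CPM in poly(I:C). In saline replicate 1 most of this was Chil3, at 1635 CPM, and Hp, at 445 CPM, while Ccr2 was at 43.2 CPM. Ms4a4c rose from a mean of 8.15 to 57.5 CPM (edgeR adjusted p = 0.0460). F13a1 is counted in both the monocyte and the border macrophage sum. Natural killer cell markers lay between 8.87 and 38.0 CPM in saline and between 11.8 and 22.5 CPM in poly(I:C), and B-cell markers between 15.5 and 40.9 and between 13.6 and 21.7 CPM. Dendritic cell markers summed to between 1018 and 1146 CPM after saline, against between 734 and 1062 CPM after poly(I:C). Most of this sum was Fscn1, whose mean was 1019 CPM after saline, against 649 CPM after poly(I:C) (edgeR adjusted p = 0.170). Bst2, of the same list, rose from a mean of 40.1 to 218 CPM (edgeR adjusted p = 0.000698). The other dendritic cell markers, Clec9a among them, were each at or below 15.9 CPM in every library. Border macrophage markers lay between 665 and 1065 CPM after saline, against between 493 and 1116 CPM after poly(I:C). For endothelial markers the ranges were 203 to 416 CPM, against 299 to 674 CPM. Astrocyte markers stayed between 92.8 and 127 CPM and neuronal markers at or below 1.24 CPM in all 6 libraries.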
